A study of Mus musculus with 5 samples.

Results

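Gpr39 and Lypd1 are neighbouring genes of mouse chromosome 1 whose annotated spans overlap at their ends. They were chosen by their fold changes: both were among the genes that stood higher in the visual relay of the thalamus, the dorsal lateral geniculate nucleus (dLGN), when the axon guidance gene Sema6a was missing. Their members are the probe sets, groups of short probes read together on an Affymetrix array, whose platform gene entry holds either symbol. There were 3 such probe sets of 45037 tested, 1 for Gpr39 (1432260_at) and 2 for Lypd1 (1431569_a_at and 1442887_at). The knockout was homozygous for loss of Sema6a (Sema6A-/-) and gave 2 arrays. The control was heterozygous, with 1 working copy, and gave 3 arrays. All mice were newborn (postnatal day 0) on a C57BL/6 background, and each array held RNA of dLGN tissue pooled from pups of 1 genotype and several litters. No wild-type array was used here, and the labels do not say how the Sema6a allele was made.

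Gpr39 is a G protein-coupled receptor of the ghrelin receptor family. It is activated by zinc ions, which some glutamatergic neurons release from synaptic vesicles, and it signals through Gq and phospholipase C. In neurons it is known to raise the activity of the chloride exporter encoded by Slc12a5. Lypd1, also called Lynx2, is a small protein of the Ly6 and uPAR family, held at the outer face of the cell membrane by a lipid anchor. It binds nicotinic acetylcholine receptors and dampens their responses.

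Sema6a itself was lower in the knockout at its brightest probe set, with 7.81 and 7.85 in the knockout arrays and 10.39 to 10.65 in the control arrays on the log2 scale. All 14 markers of thalamic relay neurons reached the median of all probe sets, 6.41, in at least 1 genotype, and the mean of the list lay at 11.42 and 11.88 in the knockout and between 11.48 and 11.69 in the control. Of this list 1 gene was called, where 0.0733% of all probe sets were. It was Cck, a neuropeptide gene, which was lower in the knockout (log2 fold change -2.12, limma adjusted p = 0.0236). Cck did not pass with any 1 control array left out. The other markers of the list ran from -1.44 (Slc6a4) to 1.97 (Gbx2). Single arrays stood apart from the rest in several marker genes. Markers of GABAergic and prethalamic neurons were high in knockout replicate 1, where Slc6a4, the serotonin transporter, was low (7.98, against 10.60 to 10.85 elsewhere). Xist, the RNA of the inactive X chromosome, was low in knockout replicate 2 (2.94 to 4.10 at its 3 probe sets, against 10.11 or more in every other array), and Tac1, a neuropeptide gene, was high there (10.34, against 8.68 or less). Meningeal markers were high in control replicate 3, with a list mean of 8.45, against 6.64 to 7.12 elsewhere. The sex of the pups is not in the labels. Because tissue was measured in bulk, more cells of a type and more RNA per cell cannot be told apart.

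In the GRCm38.p6 annotation, Gpr39 lies on the plus strand of chromosome 1 from 125676996 to 125873862. Lypd1 lies on the minus strand from 125867622 to 125913175. The genes therefore run towards each other, and their last stretches share 6241 bases (125867622 to 125873862), which is 3.17% of the Gpr39 span and 13.7% of the Lypd1 span. A predicted gene, Gm41943, lies on the minus strand within the Gpr39 span and has no probe set named for it in the annotation used here. The annotation used here gives gene spans without exons, and the positions of the probes were not used here. Whether any probe lies in the shared stretch was therefore not tested. In the naming scheme of these arrays, the ending _a_at marks probes that read several transcripts of 1 gene, and neither gene has a probe set with the ending _s_at or _x_at, given to probes that also match other genes. That scheme does not speak of transcripts from the opposite strand.

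The starts of the genes lie at opposite ends of the locus. The start of Gpr39 and the outermost of the 3 Lypd1 starts in the promoter table are 236 kb apart, so their promoters are separate stretches of DNA. Both are printed 5′ to 3′ on the strand of their gene, from 250 bases before to 50 bases after the start, as given by RefSeq for GRCm38.p6. The Gpr39 promoter is chr1:125676746-125677045 and the Lypd1 promoter is chr1:125912879-125913178. They are shown because the genes moved together, and capitals mark matches to the E-box letters CANNTG, the only searched motif found in both.
Gpr39: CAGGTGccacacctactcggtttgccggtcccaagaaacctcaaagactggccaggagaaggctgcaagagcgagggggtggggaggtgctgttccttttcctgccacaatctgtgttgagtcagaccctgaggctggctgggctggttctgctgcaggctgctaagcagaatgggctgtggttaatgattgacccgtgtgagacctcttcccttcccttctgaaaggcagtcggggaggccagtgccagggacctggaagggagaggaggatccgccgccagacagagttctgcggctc
Lypd1: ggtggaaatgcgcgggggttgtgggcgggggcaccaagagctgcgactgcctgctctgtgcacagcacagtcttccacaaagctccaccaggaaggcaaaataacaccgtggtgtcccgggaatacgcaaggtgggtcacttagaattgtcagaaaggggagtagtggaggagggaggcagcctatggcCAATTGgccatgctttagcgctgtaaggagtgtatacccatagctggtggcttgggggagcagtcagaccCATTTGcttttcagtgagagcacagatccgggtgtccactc

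The E-box letters, whose pattern is the same on both strands, occurred 1 time in the Gpr39 promoter and 2 times in this Lypd1 promoter, and 72.3% of 32851 promoters of the same length hold them. The search covered both strands for 8 other short motifs. The Gpr39 promoter held 1 match to the TCF/LEF core CTTTGA (16.0% of all promoters) and no match to the other 7. The Lypd1 promoter held 3 matches to the metal response core TGCNCNC (51.0% of all promoters), 1 to the GC box GGGCGG (35.7%) and 2 to the CCAAT box (37.4%), which overlap each other and an E-box match. The letters of the TATA box (TATAAA), the cyclic AMP response core (TGACG), the homeobox core (TAATTA) and the ROR core (AGGTCA) were in neither window. They occur in 13.6%, 20.8%, 5.29% and 16.3% of all promoters. Of these motifs, the other 2 Lypd1 promoters held only TGACG, with 1 match in the window that starts at 125912165. The base pair CG occurred 8 times in the Gpr39 promoter and 9 times in the Lypd1 promoter, against a median of 7 over all promoters. The other 2 Lypd1 promoters held it 12 and 17 times. The gene span of Lypd1 reaches from these starts nearly to the upstream edge of its printed window, so most of that window lies inside the annotated gene.

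Gpr39 read 9.75 and 9.55 in the knockout arrays and 6.95, 6.43 and 6.63 in the control arrays, as log2 expression values normalised with RMA. Both knockout arrays lay far above every control array, and the controls sat close to the median of all probe sets. The 2 knockout arrays averaged 9.65 ± 0.14 and the 3 control arrays 6.67 ± 0.26 (mean ± SD). This is a log2 fold change of 2.99 ± 0.18 (standard error of the limma fit), or 7.92-fold. The lowest knockout array exceeded the highest control array by 2.61, whereas the controls spanned 0.52. The log2 fold change was 2.89 without knockout replicate 1, 3.09 without knockout replicate 2 and 2.97 without control replicate 3, the arrays that stood apart.

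The brighter Lypd1 probe set, 1431569_a_at, read 10.89 and 10.55 in the knockout and 8.16, 7.62 and 8.06 in the control. Here too the groups lay wide apart, with the controls also brighter than the typical probe set. The averages were 10.72 ± 0.24 over the 2 knockout arrays and 7.95 ± 0.29 over the 3 control arrays (mean ± SD), a log2 fold change of 2.77 ± 0.21 (standard error), or 6.84-fold. Without the same 3 arrays in turn it was 2.61, 2.94 and 2.83.

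The dimmer Lypd1 probe set, 1442887_at, read 8.77 and 7.38 in the knockout and 4.78, 4.60 and 5.26 in the control. The groups did not overlap, but the knockout arrays differed from each other by 1.39, and the control values lay below the median of all probe sets, where RMA compresses differences. The averages were 8.07 ± 0.98 over the 2 knockout arrays and 4.88 ± 0.34 over the 3 control arrays (mean ± SD). Its log2 fold change was 3.20 ± 0.44 (standard error), or 9.17-fold, and it was 2.50 without knockout replicate 1 and 3.89 without knockout replicate 2.

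**Figure D1:**
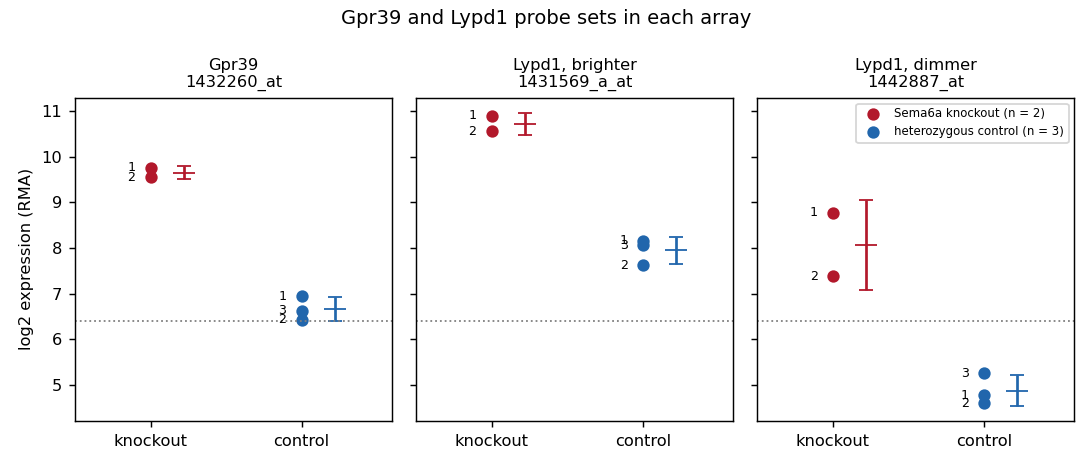
Log2 expression (RMA) of the 3 probe sets of Gpr39 and Lypd1 in each array. Points are arrays with their replicate number, the horizontal mark with a bar is the mean ± SD of the group, and the dotted line is the median of all probe sets, 6.41. Both knockout arrays lie above all 3 control arrays in every panel, and the knockout arrays differ from each other by 1.39 at the dimmer Lypd1 probe set.

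These differences chose the members, so they are described and not tested. In the limma fit over all probe sets, 0.0644% passed an adjusted p of 0.05 and were higher in the knockout. Of the 3 probe sets, 2 (Gpr39 and the brighter one of Lypd1) were among them. Because the same contrast chose these probe sets, their passing is no support for the rises. With any 1 array left out, or with the replicate number as a block, no probe set passed in limma, these included (3694 to 8397 and 4950 had an unadjusted p under 0.05). All 3 had every knockout array above every control array, as did 12.9% of all probe sets. Across the whole array, 13 probe sets had a log2 fold change as large as that of the brighter Lypd1 probe set, the 3 of these genes included, and the median over all probe sets was -0.01.

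The sizes of the rises were then set against each other, array by array, as the log2 value of Gpr39 minus that of the brighter Lypd1 probe set. This difference was -1.13 and -1.0 in the knockout and -1.22, -1.18 and -1.43 in the control. The values stayed within 0.44 of each other over all 5 arrays, although each gene differed by 2.77 or more between genotypes. The rise of Gpr39 exceeded that of this Lypd1 probe set by 0.21, with an SD of 0.10 between knockout arrays and 0.14 between control arrays. The groups did not overlap, but an exact permutation test of 2 arrays against 3 could not give a p below 0.1.

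Against the dimmer Lypd1 probe set the sign turned. Gpr39 minus that probe set was 0.98 and 2.17 in the knockout and 2.17, 1.83 and 1.37 in the control, with overlapping groups and a difference of the rises of -0.21. Averaged over both Lypd1 probe sets, the difference of the rises was 0.00. The order of the rises of Gpr39 and Lypd1 thus depended on the Lypd1 probe set used, and by size the rises could not be told apart with these arrays. The interval that the arrays allow for this difference was not estimated.

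The probe sets of Lypd1 differed from each other more than Gpr39 differed from the brighter one. The brighter minus the dimmer was 2.12 and 3.17 in the knockout and 3.39, 3.02 and 2.80 in the control, a spread of 1.27 over the 5 arrays. Within the control group, where genotype plays no part, Gpr39 deviated from its mean by 0.28, -0.24 and -0.04 in replicates 1 to 3. The brighter Lypd1 probe set deviated by 0.22, -0.33 and 0.11, and the dimmer one by -0.10, -0.28 and 0.38. Control replicate 2 was lowest at all 3 probe sets, and control replicate 1 was highest at Gpr39 and the brighter Lypd1 probe set only.

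Likeness over all 5 arrays was measured as the root mean square difference between profiles, each centred on its control mean. By this measure the brighter Lypd1 probe set was the closest of 45036 other probe sets to Gpr39, at 0.17, and Gpr39 was the closest to it. The dimmer Lypd1 probe set was 0.47 from both and ranked 16 for Gpr39 and 24 for its partner of the same gene. The measure is dominated by the step between genotypes, which chose the members, so it is a description.

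With each gene taken at its brightest probe set, the genes with the most similar profiles, Lypd1 and Gpr39 left out, were the same 5 for Gpr39 and Lypd1. They were Lyz2, the lysozyme of macrophages, at 0.24 from Gpr39 and 0.26 from the brighter Lypd1 probe set. C1qb, a chain of complement C1q, followed at 0.34 and 0.25, and Tyrobp, an adaptor of myeloid receptors, at 0.35 and 0.27. Igf1, a growth factor, lay at 0.38 and 0.30, and Ly86, which encodes the secreted companion of the receptor Cd180, at 0.38 and 0.29. Over all probe sets the order differed, since dimmer ones of C1qb (0.28) and Igf1 (0.32) were closer to Gpr39 than that of Tyrobp. Lyz2 read 8.84 and 8.86 in the knockout and 5.73, 5.77 and 6.09 in the control. Its knockout arrays were nearly equal, like those of Gpr39, and its log2 fold change was 2.98.

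**Figure D2:**
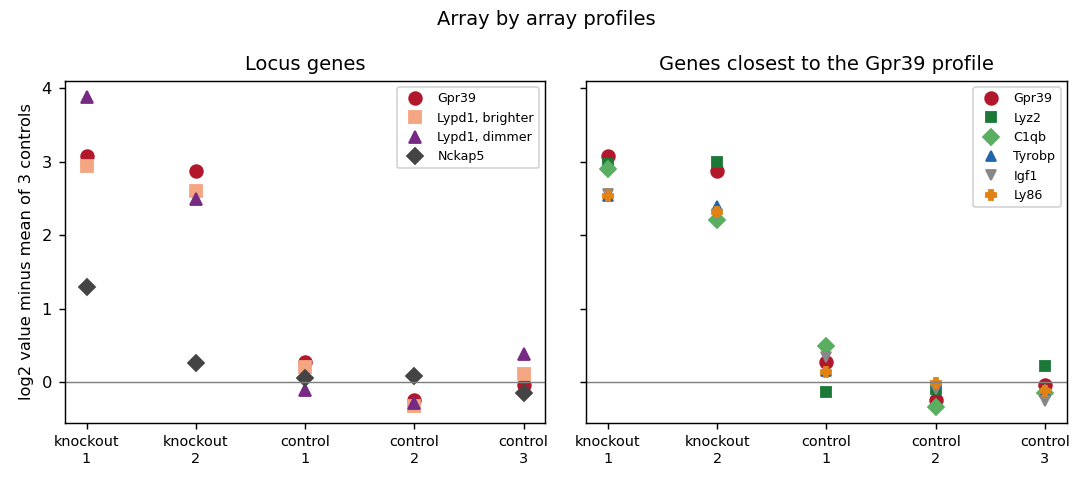
Log2 value of each array minus the mean of the 3 controls, for the probe sets of Gpr39, Lypd1 and the adjoining gene Nckap5 (left) and for Gpr39 and the 5 genes closest to its profile (right). Gpr39 and the brighter Lypd1 probe set nearly coincide in every array, while the dimmer Lypd1 probe set and Nckap5 stand higher in knockout replicate 1 than in knockout replicate 2.

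The measured genes around the locus did not share the size of these rises. Of 28 other annotated genes within 2 Mb of the locus, 9 had a probe set with that gene alone, and the rest were not measured. These 9 had 18 probe sets. Of the 18, 0 passed an adjusted p of 0.05 in limma, where 0.0733% of all probe sets passed. At an unadjusted p under 0.05 there were 2 of 18, or 11.1%, against 11.1% of all probe sets. Their log2 fold changes ran from -0.38 to 0.78 with a median of 0.05.

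On the side of Gpr39, the nearest gene with a probe set was Slc35f5, of the nucleotide sugar transporter family, 81.2 kb away. It read 10.50 and 10.67 in the knockout and 10.43, 10.56 and 10.39 in the control. The groups overlapped, with a log2 fold change of 0.12 and a standard error of 0.12 (limma adjusted p = 0.735). Actr3, a subunit of the actin-nucleating Arp2/3 complex, gave -0.03 to 0.02 at its 3 probe sets, with limma adjusted p-values from 0.942 to 0.988. Dpp10, an auxiliary subunit of potassium channels, gave 0.27 and 0.36 (limma adjusted p = 0.786 and 0.617).

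On the side of Lypd1, Nckap5 begins 461 bases beyond the annotated end of the Lypd1 span, from 125913636 to 126830796 on the same minus strand. Its last stretch therefore lies just upstream of the outermost start of Lypd1. Nckap5, which encodes a protein that binds the adaptor Nck, read 10.36 and 9.33 in the knockout and 9.13, 9.16 and 8.92 in the control. Both knockout arrays were above every control, replicate 2 only narrowly, with a log2 fold change of 0.78 and a standard error of 0.31, which missed the threshold (limma adjusted p = 0.446). Measured from the control mean it stood 1.29 higher in knockout replicate 1 and 0.26 higher in replicate 2, against 3.89 and 2.50 for the dimmer Lypd1 probe set and 3.09 and 2.89 for Gpr39. Farther on, Mgat5, an enzyme that branches sugar chains of glycoproteins, gave -0.12 to -0.38 at its 3 probe sets (limma adjusted p = 0.466 to 0.730). Tmem163, a zinc transporter of synaptic vesicles, gave -0.36 (limma adjusted p = 0.383).

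**Figure D3:**
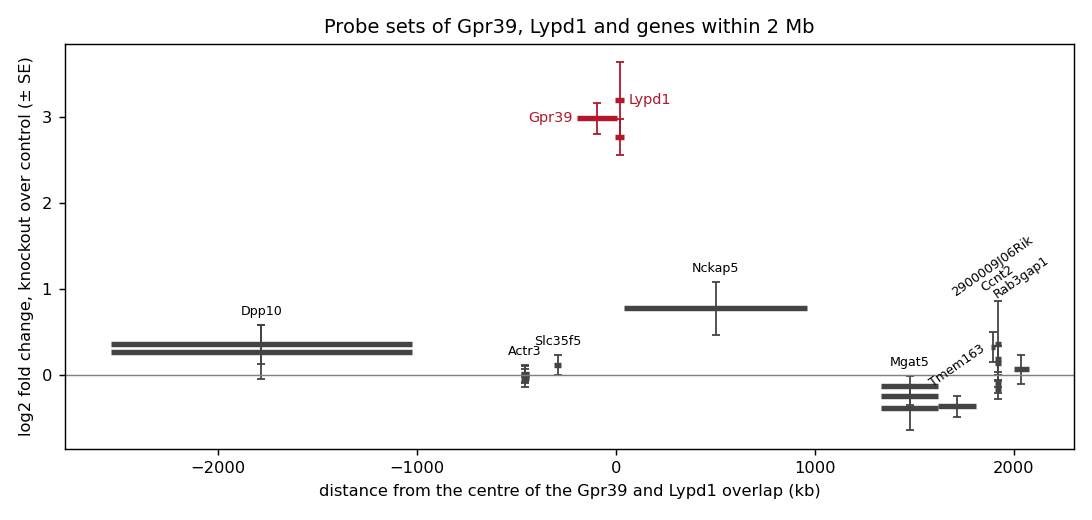
Log2 fold change, knockout over control, of every probe set of Gpr39, Lypd1 and the other genes within 2 Mb, drawn over the span of its gene as distance in kb from the centre of the overlap. Error bars are standard errors of the limma fit. The probe sets of Gpr39 and Lypd1 lie between 2.77 and 3.20, and every other probe set lies between -0.38 and 0.78.

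Genes that act with Gpr39 or Lypd1 were examined next, each gene by its brightest probe set. Over 7 lists with 103 distinct genes, 0 passed an adjusted p of 0.05 in limma, where 0.0733% of all probe sets passed. Beside so small a share, a count of 0 says little about these lists. An unadjusted p under 0.05 in limma was found for 11.1% of all probe sets, dim ones included. A fit without dim probe sets gave 3458 of 23142, and 9 of the listed genes that it kept. Among the listed genes, at their brightest probe sets, there were 11, or 10.7%, and the median log2 fold change was 0.03. With 1 control array left out, that count was 6 to 9, against 3694 to 3936 of all 45037 probe sets in the same fits.

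Of the zinc side, 24 transporters had a median log2 fold change of 0.00 and 1 unadjusted p under 0.05. That one was Slc39a8, an importer of zinc and manganese, which read 10.03 and 10.12 in the knockout and 9.36, 9.57 and 9.38 in the control. Its groups were apart, with a log2 fold change of 0.63 (limma adjusted p = 0.183). Slc30a1, the zinc exporter of the cell surface, gave 0.25, and Slc39a1, an importer, 0.27 (limma adjusted p = 0.462 and 0.468). In a list of 5 genes, the zinc-binding metallothioneins together with their transcription factor Mtf1, the highest was Mt1 at 0.81 (limma adjusted p = 0.364). The Mt1 probe set has the ending _s_at and may also read related genes. Mt3 gave 0.30 and Mtf1 0.17 (limma adjusted p = 0.755 for both). Mt2 gave 0.18 with overlapping groups, and Mt4, below the median of all probe sets in every array, -0.30 (limma adjusted p = 0.859 and 0.451).

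Among 7 relatives of Gpr39 in the ghrelin receptor family, 5 stayed below the median of all probe sets in both groups. Ntsr2, a neurotensin receptor, read 7.14 and 6.86 in the knockout and 5.01, 5.74 and 5.88 in the control. The groups were apart, with a log2 fold change of 1.45 that missed the threshold (limma adjusted p = 0.193), and Ntsr1 gave 0.22 (limma adjusted p = 0.809). Of 17 measured genes of Gpr39 signalling, the largest value was that of Plcb1, a phospholipase C that Gq proteins activate. Plcb1 read 9.71 and 10.31 in the knockout and 7.91, 8.18 and 8.18 in the control. Every knockout array was above every control, with a log2 fold change of 1.92 and a standard error of 0.21 (limma adjusted p = 0.0812). Its relative Plcb4 gave -0.41 and Rgs16, which speeds the switching off of G proteins, -0.47 (limma adjusted p = 0.363 and 0.384). Slc12a5, the chloride exporter, gave -0.21 (limma adjusted p = 0.668).

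On the Lypd1 side, 25 other members of the Ly6 and uPAR family had a median log2 fold change of 0.03, and 19 of them stayed below the median of all probe sets in both groups. Lynx1, another modulator of nicotinic receptors, read 8.75 and 8.27 in the knockout and 7.77, 7.52 and 8.26 in the control. Its groups nearly touched, with a log2 fold change of 0.66 (limma adjusted p = 0.448). Cd59a, an inhibitor of complement, gave 0.60 and Ly6e 0.31 (limma adjusted p = 0.470 and 0.509). Of 15 nicotinic subunits, the receptor family that Lypd1 binds, 0 had an unadjusted p under 0.05 in limma, against 11.1% of all probe sets. Their median log2 fold change was -0.08, and 11 of the 15 stayed below the median of all probe sets in both groups. Chrna3 gave -0.37, Chrna4 -0.55 and Chrnb2, the usual partner of Chrna4, -0.18 (limma adjusted p = 0.506, 0.695 and 0.627). Of 10 genes of acetylcholine handling and of lipid anchoring, Pgap1, which remodels the lipid anchor, gave 0.38, Pigk, which attaches it, -0.58, and the receptor chaperone gene Ric3 0.22 (limma adjusted p = 0.308, 0.408 and 0.703).

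**Figure D4:**
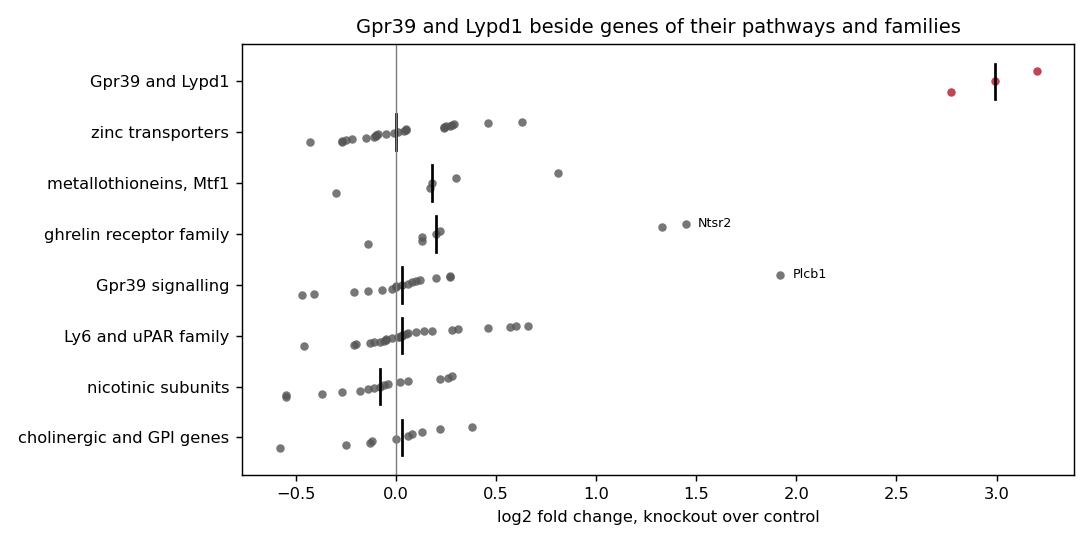
Log2 fold change, knockout over control, of the 3 probe sets of Gpr39 and Lypd1 (red) and of the brightest probe set of each gene in 7 lists (grey), with black marks at the medians. The list genes lie between -0.58 and 1.92, with Plcb1 and Ntsr2 highest, and Gpr39 and Lypd1 lie between 2.77 and 3.20.

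Markers of other cells moved in the same arrays. Of 17 measured microglia and macrophage markers, 16 were higher in the knockout. The exception was Mrc1, which read 6.74 and 5.41 in the knockout and 6.58, 6.15 and 7.10 in the control (log2 fold change -0.54). Past the threshold rose 2, Tyrobp and Lyz2 (limma adjusted p = 0.0236 for both), against 0.0644% of all probe sets. Neither of these 2 passed with any 1 control array left out. An unadjusted p under 0.05 in limma was found for 15 of the 17, against 11.1% of all probe sets, and 16 had every knockout array above every control array, against 12.9%. The mean level of that list was 8.52 to 8.71 in the knockout and 7.02 to 7.15 in the control, and relative to the controls its median gene gained 1.45 in the first knockout replicate and 1.65 in the second. The group means of 2 of the 17 were below the median of all probe sets in both genotypes. Of these, P2ry12, a purine receptor of microglia, read 6.13 and 6.67 in the knockout and 5.47, 4.98 and 4.61 in the control. The other, Itgam, a myeloid integrin, read 3.03 and 2.96 in the knockout and 2.61 to 2.85 in the control. All 18 GABAergic and prethalamic markers were higher on average, with 0 calls, where 0.0733% of all probe sets were called. Of the 18, 5 had an unadjusted p under 0.05 in limma, against 11.1% of all probe sets. In 8, every knockout array was above every control array, against 12.9%. The mean level of this list was 6.06 to 8.17 in the knockout and 5.62 to 6.12 in the control, and relative to the controls its median gene gained 2.60 in the first knockout replicate and 0.14 in the second. In knockout replicate 2, Isl1 (4.59), Npy (8.01), Sst (7.47) and Gata2 (8.25) exceeded every control array, whereas Dlx2 (4.33), Gad1 (8.25), Gad2 (7.30), Slc32a1 (6.95) and Tal1 (7.76) lay within the control range. Among 12 cortical and hippocampal markers, Bcl11b gave 1.58, Rprm 1.11, Tbr1 -0.52 and Id2 -0.90 without passing (limma adjusted p = 0.264, 0.0979, 0.702 and 0.111), and the mean level of the list was 7.88 to 7.94 in the knockout and 7.59 to 7.72 in the control. The part of any of these cell types in the rises of Gpr39 and Lypd1 was not tested.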

How the data were processed

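RNA of newborn mouse dLGN (20 ng, cut from sections of 200 µm) was amplified and hybridised to Affymetrix arrays, per the labels' protocols. The deposited values are log2 expression per probe set, and the submitters' processing notes name RMA, in a version not given in the sources used here. Their range is that of a log2 scale. RMA equalises arrays and compresses differences near background. Of 45101 probe sets, 64 array controls were left out. Genes were named from the platform annotation through RefSeq gene IDs (GRCm38.p6), and 34945 probe sets had 1 gene.

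Knockout and control were compared over 45037 probe sets by two-sided tests with limma 3.58.1 (R 4.3.3), without covariates and adjusted by Benjamini-Hochberg, after a check on simulated data. Standard errors are those of this fit. P-values measure the spread between pools, and the number of arrays limits the precision. Array pairs correlated at 0.985 to 0.995, so no array was a copy. The members, lists, tests and naming rule were chosen with earlier results of these data known. The rule named the 3 nearest genes with a probe set on each side, up to 3 genes per pathway list by smallest p among those reaching the median level in 1 group, and the 5 genes with the closest profile. Slc12a5, Gm41943, Mt2, Mt4 and the markers were named after their values were seen. Of the listed genes, 4 of signalling, 8 of the Ly6 family and 1 nicotinic subunit had no probe set with that gene alone. Alternatives were another normalisation, median centring, the replicate number as a block, array weights, an intensity trend or robust prior, a filter on dim probe sets, other windows, a looser threshold and each array left out.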

Additional observations from a re-analysis of the deposited data

How the results depend on the processing

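The log2 fold changes of Gpr39 (2.87 to 3.13) and of the brighter Lypd1 probe set (2.61 to 2.94) moved by less than 1 SD between replicates under the 9 alternatives run for each. The dimmer Lypd1 probe set ranged from 2.50 to 3.89 with 1 array left out, at its lowest without knockout replicate 1 and at its highest without knockout replicate 2. The difference between the rises was 0.14 to 0.28 with 1 array left out, -0.21 with the dimmer Lypd1 probe set and 0.00 with the mean of both. With the replicate number as a replicate block it was 0.14, and the fold changes were 2.97 (Gpr39), 2.83 and 3.39 (Lypd1). The numbers are not known to pair the pools, and the differences between replicates 1 and 2 of the knockout and of the control correlated at 0.215 across probe sets.

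Over the whole array, 33 probe sets were called, among them those of Tyrobp, Lyz2, Ly86 and Cck. The Gpr39 and brighter Lypd1 probe sets, chosen on this contrast, are part of that count. The count was 0 with the replicate block and 0 with any 1 array left out (4950 and 3694 to 8397 at an unadjusted p under 0.05 in limma), 19 with array weights, 100 with an intensity trend, 114 without dim probe sets, where fewer were tested, and 158 at an adjusted p of 0.1. The cause of these changes in the count was not tested for any setting. Neighbouring genes had 0 calls in all 14 alternatives (0 to 3 at an unadjusted p under 0.05 with 1 array left out). Of the pathway and family genes, 1, Plcb1, was called with an intensity trend (adjusted p = 0.0429) and 1, again Plcb1, without dim probe sets (adjusted p = 0.0428), and 0 in the other 10 alternatives (6 to 17 at an unadjusted p under 0.05 with 1 array left out). The control values of the dimmer Lypd1 probe set lie below the median of all probe sets, and its knockout arrays differ by 1.39. Whether low signal limits this probe set was not tested.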
